A study of Sus scrofa with 14 samples.

Results

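Expression of tricarboxylic acid (TCA) cycle, anaplerosis and fatty acid oxidation genes was described in pluripotent pig cells, cells differentiated from them and muscle-derived cells. Of 42 names listed, 41 were found as row names among the 15031 genes of the deposited expression table. All 41 passed the filter on low values. Citrate synthase (CS) is listed only under its Ensembl identifier, ENSSSCG00000035686, and is described beside the others but not counted with them. The genes were picked by name and role, without a threshold on measured values, but with earlier results of these data known.

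The 14 poly(A) RNA-seq libraries fall into 5 groups, all labelled wild type. pgEpiSCs-MPCs (2 libraries, day 8) are muscle progenitor cells made from porcine pre-gastrulation epiblast stem cells (pgEpiSCs). pgEpiSCs-MCs (3 libraries, day 44) are muscle cells made from the same stem cells. The protocol is serum-free with knockout serum replacement and starts with CHIR99021 and SB431542. It continues with CHIR99021, LDN193189, FGF2, HGF and IGF-1 in changing combinations, and ends in medium with N2 supplement. The N2 medium comes after day 8, so pgEpiSCs-MPCs and pgEpiSCs-MCs differ in medium as well as day. MPC-Dif (3 libraries, day 4) are porcine muscle stem cells (pMuSCs), isolated from the dorsal muscle of 1-week-old pigs, that were kept in medium with horse serum for 4 days of differentiation. pgEpiSCs-high (3 libraries) and pgEpiSCs-Low (3 libraries) are undifferentiated pgEpiSCs at high and low passage (day 0), grown on mouse embryonic fibroblast feeders in 3i/LAF medium, which contains CHIR99021, IWR-1-endo, WH-4-023, LIF, activin A and FGF2. The pgEpiSCs groups come from 1 established cell line, and the share of feeder RNA in their libraries was not tested. MPC-Dif and pgEpiSCs-MCs differ in origin, medium and day at once, and these cannot be told apart. The same holds for MPC-Dif and pgEpiSCs, since MPC-Dif were not made from pgEpiSCs. No library of undifferentiated pMuSCs is among the 14. For MPC-Dif, words such as rise and fall therefore mean higher or lower than in pgEpiSCs, not a change over time.

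In the mitochondrial matrix the TCA cycle oxidizes acetyl-CoA and passes the electrons to the respiratory chain. Anaplerotic enzymes refill its intermediates as they are drawn off for biosynthesis, and transaminases and malic enzymes connect it to amino acids, pyruvate and NADPH. Long-chain fatty acids are first activated to acyl-CoA, then carried into the matrix as carnitine esters and shortened by beta-oxidation, which is a main source of acetyl-CoA in oxidative muscle fibres.

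Values are TPM, a unit of transcript abundance that is scaled for transcript length and library total. A level can therefore be set beside that of another gene. Changes are log2 fold changes on the log2(TPM + 1) scale with their standard error (SE), from limma fitted over all 14957 genes tested, and calls were made where the adjusted p, by Benjamini-Hochberg over all genes tested, was below 0.05. "pgEpiSCs" as a group means the mean of both passages, with the lowest, median and highest of its 6 libraries given. The study's methods speak of biological replicates without saying whether the libraries stem from separate cultures, so p-values measure the spread between these libraries, part of which may be technical. In bulk RNA, fewer cells of a type and less RNA per cell cannot be told apart.

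Libraries of 1 group correlated at r = 0.991 to 0.996 over all genes, against 0.716 to 0.985 for libraries of different groups. Transcripts encoded in mitochondrial DNA (13 genes) made up 15.8% to 17.1% of all TPM for pgEpiSCs-MPCs, 6.07% to 6.61% for pgEpiSCs-MCs and 6.74% to 7.10% for MPC-Dif, against 19.8% to 24.9% for pgEpiSCs. Myogenin (MYOG) had 2.71 and 1.63 TPM in pgEpiSCs-MPCs, 66.6, 50.4 and 47.3 TPM in pgEpiSCs-MCs and 213, 222 and 200.2 TPM in MPC-Dif, against 0 to 0.658 TPM in pgEpiSCs, and the embryonic myosin MYH3 had 131, 123 and 117 TPM in pgEpiSCs-MCs and 281, 292 and 258 TPM in MPC-Dif. The skeletal actin ACTA1 and the muscle creatine kinase CKM, markers of mature fibres, were low in pgEpiSCs-MCs. ACTA1 had 1.34, 1.65 and 1.31 TPM in pgEpiSCs-MCs, against 124, 129.9 and 123 TPM in MPC-Dif. CKM had 0.757, 0.663 and 0.549 TPM in pgEpiSCs-MCs, against 6.21, 6.67 and 5.35 TPM in MPC-Dif. Not all of the skeletal muscle list was lower in pgEpiSCs-MCs. The muscle intermediate filament desmin (DES) had 124, 126 and 123 TPM in pgEpiSCs-MCs, against 111, 124 and 117 TPM in MPC-Dif. The myogenic factor MYOD1 had 7.91, 9.91 and 11.4 TPM in pgEpiSCs-MCs, against 1.20, 1.03 and 0.878 TPM in MPC-Dif. Other cell types' markers moved with the groups as well. The 5 pluripotency markers summed to 158 and 198 TPM in pgEpiSCs-MPCs, 97.5 to 133 TPM in pgEpiSCs-MCs and 0.086 to 0.374 TPM in MPC-Dif, against 4727 to 5515 TPM in pgEpiSCs. LEFTY2 and LIN28A make up most of the sum in pgEpiSCs. SOX2, which neural progenitors also express, did not fall with it in the pgEpiSCs-derived groups. SOX2 had 85.4 and 93.4 TPM in pgEpiSCs-MPCs and 96.9 to 130.2 TPM in pgEpiSCs-MCs, against 61.2 to 92.0 TPM in pgEpiSCs. It was at 0 to 0.05 TPM in MPC-Dif, and NANOG was at 0 in pgEpiSCs-MPCs and MPC-Dif. The 6 fibroblast markers summed to 120.5 and 123 TPM in pgEpiSCs-MPCs, 14620 to 15901 TPM in pgEpiSCs-MCs and 24273 to 25191 TPM in MPC-Dif, against 35.5 to 73.7 TPM in pgEpiSCs. COL1A1 and COL1A2 make up most of that sum in pgEpiSCs-MCs, whereas DCN had 15.8, 15.9 and 13.8 TPM in pgEpiSCs-MCs against 2908, 2927 and 2957 TPM in MPC-Dif, and LUM and PDGFRA were also far lower in pgEpiSCs-MCs than in MPC-Dif. The 5 neural markers summed to 1962 and 1998 TPM in pgEpiSCs-MPCs, 2072 to 2224 TPM in pgEpiSCs-MCs and 188 to 197 TPM in MPC-Dif, against 389 to 529 TPM in pgEpiSCs. In pgEpiSCs-MPCs most of it is ZIC1, at 1048 and 1094 TPM, and NES, at 700.4 and 691 TPM. TUBB3 went the other way at day 8, with 123 and 130 TPM against 210 to 274 TPM in pgEpiSCs. The 4 smooth muscle markers summed to 1914 and 1995 TPM in pgEpiSCs-MPCs, 4659 to 4818 TPM in pgEpiSCs-MCs and 3993 to 5099 TPM in MPC-Dif, against 26.9 to 61.1 TPM in pgEpiSCs. ACTA2 and TAGLN make up most of it. CNN1 had 88.1, 86.1 and 80.1 TPM in pgEpiSCs-MCs and 5.12, 5.66 and 7.45 TPM in MPC-Dif, against 2.37 to 8.55 TPM in pgEpiSCs, and MYH11 likewise was higher in pgEpiSCs-MCs and at the level of pgEpiSCs in MPC-Dif. Their part in the results below was not tested.

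Summed over the 14 named genes of the TCA cycle, which include the cytosolic forms of aconitase, isocitrate dehydrogenase and malate dehydrogenase, the level was lower in each differentiated group. The sum was 1912 and 1951 TPM in pgEpiSCs-MPCs, 1655 ± 25.9 TPM in pgEpiSCs-MCs (SD, n = 3) and 1588 ± 17.4 TPM in MPC-Dif (SD, n = 3), against 2530 ± 124 TPM in pgEpiSCs (SD, n = 6), with no overlap between the pgEpiSCs libraries and any other. The 8 genes of anaplerosis, transamination and citrate export were lower as well, at 1064 and 1114 TPM in pgEpiSCs-MPCs, 958 ± 32.8 TPM in pgEpiSCs-MCs and 996 ± 12.0 TPM in MPC-Dif, against 1420 ± 113 TPM in pgEpiSCs. The 5 genes of the later steps of beta-oxidation went the other way, at 386 and 395 TPM in pgEpiSCs-MPCs, 422 ± 1.97 TPM in pgEpiSCs-MCs and 555 ± 16.8 TPM in MPC-Dif, against 320.5 ± 13.5 TPM in pgEpiSCs. The 4 genes of the carnitine shuttle peaked in pgEpiSCs-MPCs, at 378 and 392 TPM, with 258 ± 6.01 TPM in pgEpiSCs-MCs and 245 ± 4.14 TPM in MPC-Dif, against 250.5 ± 23.9 TPM in pgEpiSCs. The other 2 roles of fatty acid oxidation did not follow. The 7 acyl-CoA dehydrogenase and electron transfer flavoprotein (ETF) genes summed to 462 and 466 TPM in pgEpiSCs-MPCs, 365 ± 26.3 TPM in pgEpiSCs-MCs and 566 ± 8.52 TPM in MPC-Dif, against 515 ± 18.0 TPM in pgEpiSCs. The 3 acyl-CoA synthetases were lower in each differentiated group, at 295 and 307 TPM in pgEpiSCs-MPCs, 328 ± 16.8 TPM in pgEpiSCs-MCs and 233 ± 21.8 TPM in MPC-Dif, against 433 ± 26.0 TPM in pgEpiSCs. These sums follow the most abundant genes of each role. Most of the fall of the TCA cycle sum in pgEpiSCs-MPCs lay in MDH2, with means of 281 TPM there and 818 TPM in pgEpiSCs. The lack of overlap between pgEpiSCs-MPCs and pgEpiSCs in this sum depends on MDH2. Of the 14 genes, 3 were called higher in pgEpiSCs-MPCs over pgEpiSCs (MDH1, IDH2 and SUCLG2) and 9 lower.

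**Figure D1:**
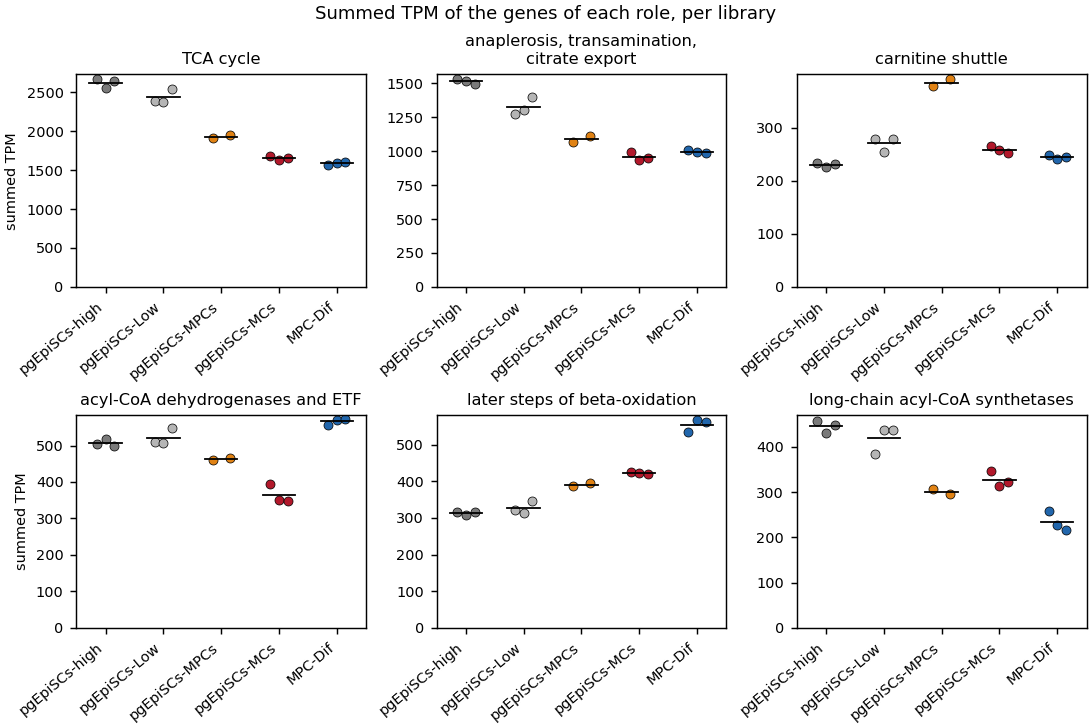
Summed TPM of the genes of each role (y axes) in every library (points) by group (x axes), with the group mean as a line. The TCA cycle sum lies between 1572 and 1951 TPM in the 3 differentiated groups and between 2382 and 2675 TPM in pgEpiSCs, while the later steps of beta-oxidation are highest in MPC-Dif, at 536 to 567 TPM.

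In pgEpiSCs-MPCs over pgEpiSCs, 13 of the 41 genes were called higher, where 47.5% of all genes tested were, and 22 were called lower, where 21.4% of all genes were. Their median log2 fold change was -0.24, beside 0.24 over all genes. With median-of-ratios scaling the split was 8 higher and 29 lower, and with quantile normalization 7 higher and 29 lower. In pgEpiSCs-MCs over pgEpiSCs, 14 were called higher (50.8% of all genes) and 26 lower (30.9%), with a median of -0.38 beside 0.27. In MPC-Dif over pgEpiSCs, 13 were called higher (37.4% of all genes) and 21 lower (44.1%), with a median of -0.16 beside -0.10. Median-of-ratios scaling gave 16 higher and 17 lower, quantile normalization 11 and 23, and leaving out the mitochondrial genes 11 and 26. From day 8 to day 44, in pgEpiSCs-MCs over pgEpiSCs-MPCs, 11 were called higher (34.5% of all genes) and 18 lower (36.1%). In pgEpiSCs-MCs over MPC-Dif, 8 were called higher (50.0% of all genes) and 23 lower (29.1%), with a median of -0.21 beside 0.29, and median-of-ratios scaling gave 4 higher and 34 lower. Between the passages, in pgEpiSCs-high over pgEpiSCs-Low, 9 were called higher (8.36% of all genes) and 8 lower (15.7%). The 9 became 6 without pgEpiSCs-Low replicate 1 or 2 or pgEpiSCs-high replicate 3. The 8 became 5 without pgEpiSCs-Low replicate 3. The comparisons with pgEpiSCs share those 6 libraries. By role, the calls in pgEpiSCs-MCs over pgEpiSCs were 3 higher and 11 lower of 14 genes of the TCA cycle, 2 and 6 of 8 of anaplerosis, transamination and citrate export, 3 and 1 of 4 of the carnitine shuttle, 2 and 4 of 7 acyl-CoA dehydrogenase and ETF genes, 3 and 2 of 5 of the later steps of beta-oxidation, and 1 and 2 of 3 acyl-CoA synthetases. In MPC-Dif over pgEpiSCs, the same roles had 3 and 10, 3 and 5, 2 and 1, 1 and 3, 3 and 0, and 1 and 2. Scaling also moved the balance over all genes, since 7104 higher and 3197 lower calls in pgEpiSCs-MPCs over pgEpiSCs became 5015 and 4891 with median-of-ratios scaling, and the all-gene median of 0.24 became 0.

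**Figure D2:**
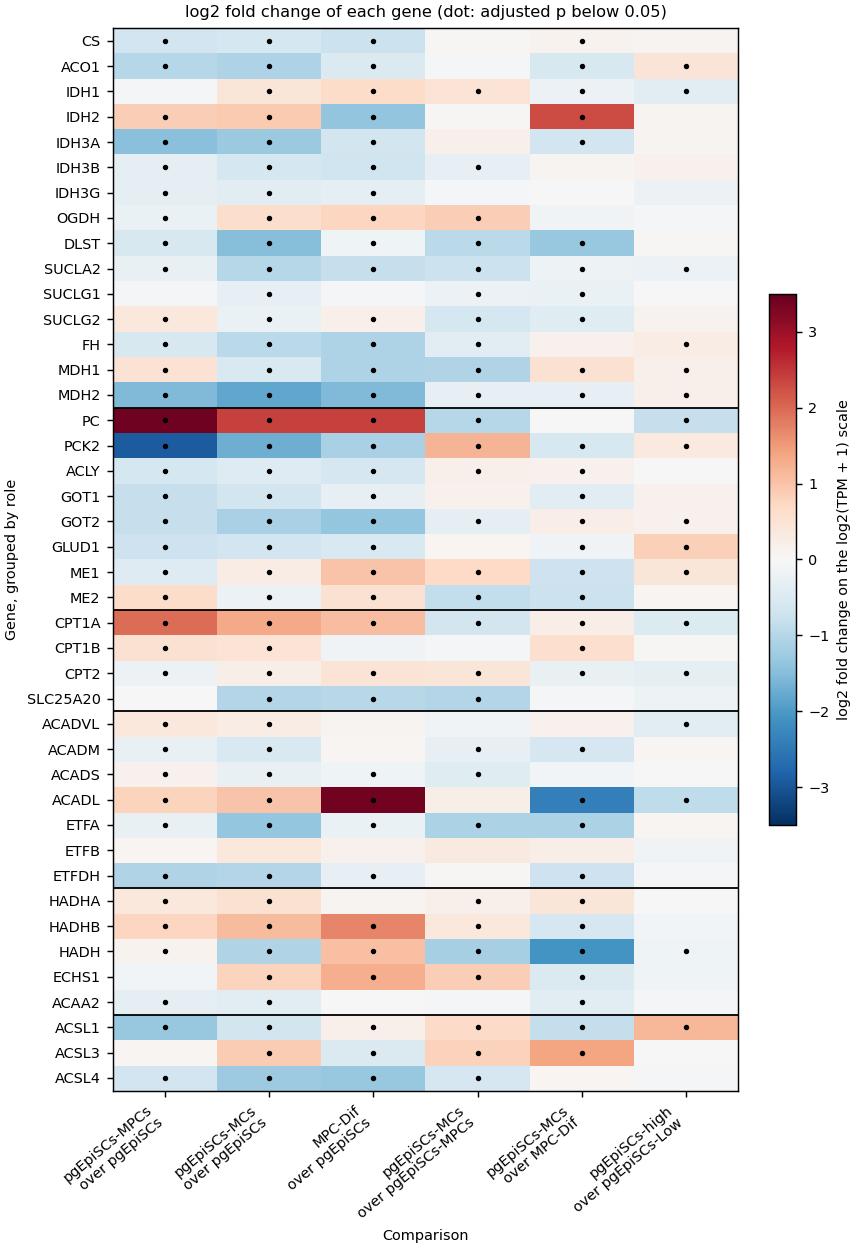
Log2 fold change on the log2(TPM + 1) scale (colour) of the 42 genes (rows, grouped by role: TCA cycle, anaplerosis and its partners, carnitine shuttle, acyl-CoA dehydrogenases with the electron transfer flavoprotein, later steps of beta-oxidation, acyl-CoA synthetases) in 6 comparisons (columns), with a dot where the adjusted p is below 0.05. PC reaches 3.41 and PCK2 -2.91 in pgEpiSCs-MPCs over pgEpiSCs, and ACADL reaches 3.37 in MPC-Dif over pgEpiSCs.

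Among the TCA cycle genes the largest fall was in MDH2, the mitochondrial malate dehydrogenase, which was the most abundant of all 41 genes in pgEpiSCs. It had 274 and 289 TPM in pgEpiSCs-MPCs, 229, 232 and 225 TPM in pgEpiSCs-MCs and 269, 277 and 290.2 TPM in MPC-Dif, against a range of 744 to 895 TPM (median 808) in pgEpiSCs. Every differentiated library was below every pgEpiSCs library (log2 fold change -1.53, SE 0.049, adjusted p = 3.12e-12 for pgEpiSCs-MPCs over pgEpiSCs). The change was -1.83 for pgEpiSCs-MCs and -1.55 for MPC-Dif over pgEpiSCs (adjusted p = 3.59e-14 and 1.08e-13). MDH1, the cytosolic form, had 404 and 384 TPM in pgEpiSCs-MPCs, 201, 182 and 189.6 TPM in pgEpiSCs-MCs and 126, 135 and 135 TPM in MPC-Dif, against a range of 248 to 301 TPM (median 282) in pgEpiSCs. It was thus highest at day 8 (log2 fold change 0.50, SE 0.056, adjusted p = 2.07e-06) and below the pgEpiSCs libraries in both kinds of muscle cells (-0.54 in pgEpiSCs-MCs and -1.07 in MPC-Dif). Ratios of 2 genes are given within a library, and those between genes that are not paralogs were picked after the values had been seen. The MDH2 to MDH1 ratio was 0.678 and 0.752 for pgEpiSCs-MPCs, 1.20 ± 0.066 for pgEpiSCs-MCs and 2.11 ± 0.049 for MPC-Dif, against 2.93 ± 0.14 for pgEpiSCs (SD).

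CS, the enzyme that starts the cycle by joining acetyl-CoA and oxaloacetate, had 75.4 and 80.7 TPM in pgEpiSCs-MPCs, 80.0, 79.3 and 82.1 TPM in pgEpiSCs-MCs and 76.0, 73.0 and 73.3 TPM in MPC-Dif, against a range of 119 to 133 TPM (median 125) in pgEpiSCs. The log2 fold changes over pgEpiSCs were -0.67, -0.63 and -0.74 for pgEpiSCs-MPCs, pgEpiSCs-MCs and MPC-Dif. Fumarase (FH) had 63.2 and 70.2 TPM in pgEpiSCs-MPCs, 52.1, 50.4 and 50.2 TPM in pgEpiSCs-MCs and 45.7, 45.3 and 47.4 TPM in MPC-Dif, against a range of 85.8 to 116 TPM (median 99.9) in pgEpiSCs. FH was lower in all 3 groups (log2 fold change -1.09, SE 0.053, adjusted p = 8.47e-11 for MPC-Dif over pgEpiSCs). ACO1, the cytosolic aconitase that doubles as an iron regulatory protein, had 115 and 124 TPM in pgEpiSCs-MPCs, 123, 106 and 115 TPM in pgEpiSCs-MCs and 178, 165 and 166 TPM in MPC-Dif, against a range of 196 to 293 TPM (median 246) in pgEpiSCs, lower throughout and least so in MPC-Dif (-0.51, beside -1.01 in pgEpiSCs-MPCs and -1.08 in pgEpiSCs-MCs).

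The NAD-dependent isocitrate dehydrogenase IDH3 is built from a catalytic alpha subunit and the beta and gamma subunits. IDH3A, the catalytic subunit, had 37.2 and 34.9 TPM in pgEpiSCs-MPCs, 44.0, 37.2 and 40.8 TPM in pgEpiSCs-MCs and 71.7, 62.8 and 61.0 TPM in MPC-Dif, against a range of 93.8 to 108 TPM (median 104) in pgEpiSCs. Its fall was the largest of the 3 subunits in pgEpiSCs-MPCs (log2 fold change -1.48, SE 0.077, adjusted p = 6.07e-10) and in pgEpiSCs-MCs (-1.31). IDH3B had 112 and 133 TPM in pgEpiSCs-MPCs, 99.5, 100.1 and 98.7 TPM in pgEpiSCs-MCs and 90.6, 91.0 and 99.4 TPM in MPC-Dif, against a range of 138 to 167 TPM (median 153) in pgEpiSCs, and IDH3G had 45.6 and 46.4 TPM in pgEpiSCs-MPCs, 45.0, 43.7 and 43.8 TPM in pgEpiSCs-MCs and 45.6, 45.1 and 42.6 TPM in MPC-Dif, against a range of 46.5 to 64.7 TPM (median 59.6) in pgEpiSCs. In pgEpiSCs-MPCs IDH3B changed by -0.32 and IDH3G by -0.30 over pgEpiSCs, and both stayed below the pgEpiSCs libraries in pgEpiSCs-MCs and MPC-Dif as well. The IDH3A to IDH3B ratio was 0.262 and 0.333 in pgEpiSCs-MPCs and 0.409 ± 0.036 in pgEpiSCs-MCs, against 0.669 ± 0.056 in pgEpiSCs, while MPC-Dif, at 0.698 ± 0.089, overlapped with pgEpiSCs.

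The NADP-dependent isocitrate dehydrogenases parted the 2 kinds of muscle cells. IDH2, the mitochondrial form, had 304 and 342 TPM in pgEpiSCs-MPCs, 326, 337 and 329 TPM in pgEpiSCs-MCs and 59.4, 76.6 and 68.5 TPM in MPC-Dif, against a range of 163 to 186 TPM (median 177) in pgEpiSCs. It was above every pgEpiSCs library in both pgEpiSCs-derived groups (log2 fold change 0.90, SE 0.066, adjusted p = 9.82e-09 for pgEpiSCs-MCs) and below every one in MPC-Dif (log2 fold change -1.37, SE 0.066, adjusted p = 6.63e-11). Set directly against MPC-Dif, pgEpiSCs-MCs were higher by 2.27 on the log2 scale (adjusted p = 2.10e-12). IDH1, the cytosolic form, had 191 and 179 TPM in pgEpiSCs-MPCs, 259, 253 and 260.5 TPM in pgEpiSCs-MCs and 291, 304 and 299 TPM in MPC-Dif, against a range of 162 to 232 TPM (median 191) in pgEpiSCs. It was higher than in pgEpiSCs in both (0.42 for pgEpiSCs-MCs, 0.63 for MPC-Dif), and lower in pgEpiSCs-MCs than in MPC-Dif (-0.21, adjusted p = 7.60e-04). The IDH2 to IDH1 ratio was 1.28 ± 0.040 in pgEpiSCs-MCs and 0.229 ± 0.024 in MPC-Dif (SD, n = 3 each).

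Further along the cycle, the 2 named subunits of the 2-oxoglutarate dehydrogenase complex moved apart. OGDH, the subunit that binds 2-oxoglutarate, had 54.1 and 57.4 TPM in pgEpiSCs-MPCs, 102, 101 and 104 TPM in pgEpiSCs-MCs and 119, 105 and 109 TPM in MPC-Dif, against a range of 61.2 to 71.3 TPM (median 65.4) in pgEpiSCs. DLST, the succinyltransferase core, had 62.5 and 64.9 TPM in pgEpiSCs-MPCs, 35.3, 30.0 and 33.6 TPM in pgEpiSCs-MCs and 85.0, 84.9 and 81.7 TPM in MPC-Dif, against a range of 86.2 to 101 TPM (median 92.1) in pgEpiSCs. In pgEpiSCs-MCs over pgEpiSCs OGDH rose (log2 fold change 0.62, SE 0.057, adjusted p = 1.32e-07) while DLST fell (log2 fold change -1.49, SE 0.062, adjusted p = 1.81e-11). In MPC-Dif OGDH rose as well (0.74), and DLST changed by -0.16 (adjusted p = 0.027), a call lost with median-of-ratios scaling and, at -0.13 to -0.17, without pgEpiSCs-Low replicate 3, pgEpiSCs-high replicate 1, or MPC-Dif replicate 2 or 3. DLST was lower in pgEpiSCs-MCs than in MPC-Dif (log2 fold change -1.32, SE 0.072, adjusted p = 4.11e-10).

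Succinyl-CoA ligase pairs the shared alpha subunit SUCLG1 with either SUCLA2, which makes the ATP-forming enzyme, or SUCLG2, which makes the GTP-forming one. SUCLA2 had 103 and 95.2 TPM in pgEpiSCs-MPCs, 63.6, 59.1 and 54.3 TPM in pgEpiSCs-MCs and 67.0, 63.6 and 71.6 TPM in MPC-Dif, against a range of 107 to 132 TPM (median 121) in pgEpiSCs. SUCLG2 had 84.0 and 71.1 TPM in pgEpiSCs-MPCs, 51.1, 49.0 and 51.4 TPM in pgEpiSCs-MCs and 66.2, 69.5 and 68.7 TPM in MPC-Dif, against a range of 53.5 to 65.3 TPM (median 60.8) in pgEpiSCs. SUCLA2 fell in all 3 groups, most in pgEpiSCs-MCs (log2 fold change -1.01, SE 0.055, adjusted p = 3.54e-10). SUCLG2 was higher in pgEpiSCs-MPCs (0.37, a call lost with median-of-ratios scaling and quantile normalization) and lower in pgEpiSCs-MCs (-0.24). In MPC-Dif its change was 0.19 (adjusted p = 0.012), which turned to -0.08 with the mitochondrial genes left out. The SUCLA2 to SUCLG2 ratio was 1.23 and 1.34 for pgEpiSCs-MPCs, 1.17 ± 0.099 for pgEpiSCs-MCs and 0.990 ± 0.066 for MPC-Dif, against 2.02 ± 0.28 for pgEpiSCs. SUCLG1 stayed between 51.1 and 65.9 TPM in all 14 libraries. It was called lower in pgEpiSCs-MCs, at 51.1 to 54.9 TPM, against 63.2 to 65.9 TPM in pgEpiSCs.

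In pgEpiSCs-MPCs over pgEpiSCs the largest rise and the largest fall of the genes were in enzymes that make and use oxaloacetate. Pyruvate carboxylase (PC), the main anaplerotic enzyme, makes oxaloacetate from pyruvate in mitochondria. It had 347 and 355 TPM in pgEpiSCs-MPCs, 177, 174 and 171 TPM in pgEpiSCs-MCs and 182, 159.7 and 178 TPM in MPC-Dif, against a range of 20.1 to 44.7 TPM (median 33.2) in pgEpiSCs. All differentiated libraries were above all pgEpiSCs libraries, and the 2 day 8 libraries were above all others (log2 fold change 3.41, SE 0.09, adjusted p = 4.52e-13 over pgEpiSCs). The change was 2.40 in pgEpiSCs-MCs and 2.39 in MPC-Dif over pgEpiSCs, with -1.01 from day 8 to day 44 (adjusted p = 6.17e-07). PCK2, the mitochondrial phosphoenolpyruvate carboxykinase, turns oxaloacetate into phosphoenolpyruvate. It had 32.7 and 32.3 TPM in pgEpiSCs-MPCs, 76.4, 75.0 and 75.6 TPM in pgEpiSCs-MCs and 112, 115 and 112 TPM in MPC-Dif, against a range of 207 to 293 TPM (median 249) in pgEpiSCs. PCK2 was lowest at day 8 (log2 fold change -2.91, SE 0.05, adjusted p = 8.84e-15 over pgEpiSCs), higher at day 44 than at day 8 (log2 fold change 1.19, SE 0.056, adjusted p = 2.38e-10), and lower in pgEpiSCs-MCs than in MPC-Dif (-0.57, adjusted p = 9.77e-08). The PC to PCK2 ratio was 10.6 and 11.0 for pgEpiSCs-MPCs, 2.30 ± 0.033 for pgEpiSCs-MCs and 1.54 ± 0.13 for MPC-Dif, against 0.139 ± 0.059 for pgEpiSCs, whose libraries lay between 0.0747 and 0.197.

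PCK2 lies on chromosome 7 (75187195 to 75197613, minus strand, Sscrofa11.1). The 200 bases before its RefSeq start, chr7:75197614-75197813, are shown because PCK2 had the largest fall of the genes. The capitals mark a match to TGATGNAA on the opposite strand, the core of the C/EBP-ATF response element, which was searched for after this sequence had been read.
PCK2 upstream: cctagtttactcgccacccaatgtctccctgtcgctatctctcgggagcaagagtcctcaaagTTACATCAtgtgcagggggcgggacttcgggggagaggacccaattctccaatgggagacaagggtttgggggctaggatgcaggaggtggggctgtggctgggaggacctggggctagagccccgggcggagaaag
In all, 3 motifs were searched. Among windows of 250 bases before to 50 bases after a start, TGATGNAA was found on either strand in 4 of the 42 genes (CPT1A, PCK2, GOT1 and ACSL1, which is 9.52%) and in 3.03% of 20641 protein-coding genes. The PCK2 window had been read before this motif was chosen, so PCK2 was bound to be counted. No excess can therefore be read from these shares. The other 2 motifs were chosen as sites of known regulators of these pathways. TCAAGGTCA, the extended site bound by estrogen-related receptors, was in 0 of the 42 windows and 0.349% of all. CGCATGCG, the core of the site bound by NRF1, was in 0 of the 42 and 1.99% of all. The annotated start of a gene need not be the start used in these cells, and a match is not a bound site.

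**Figure D3:**
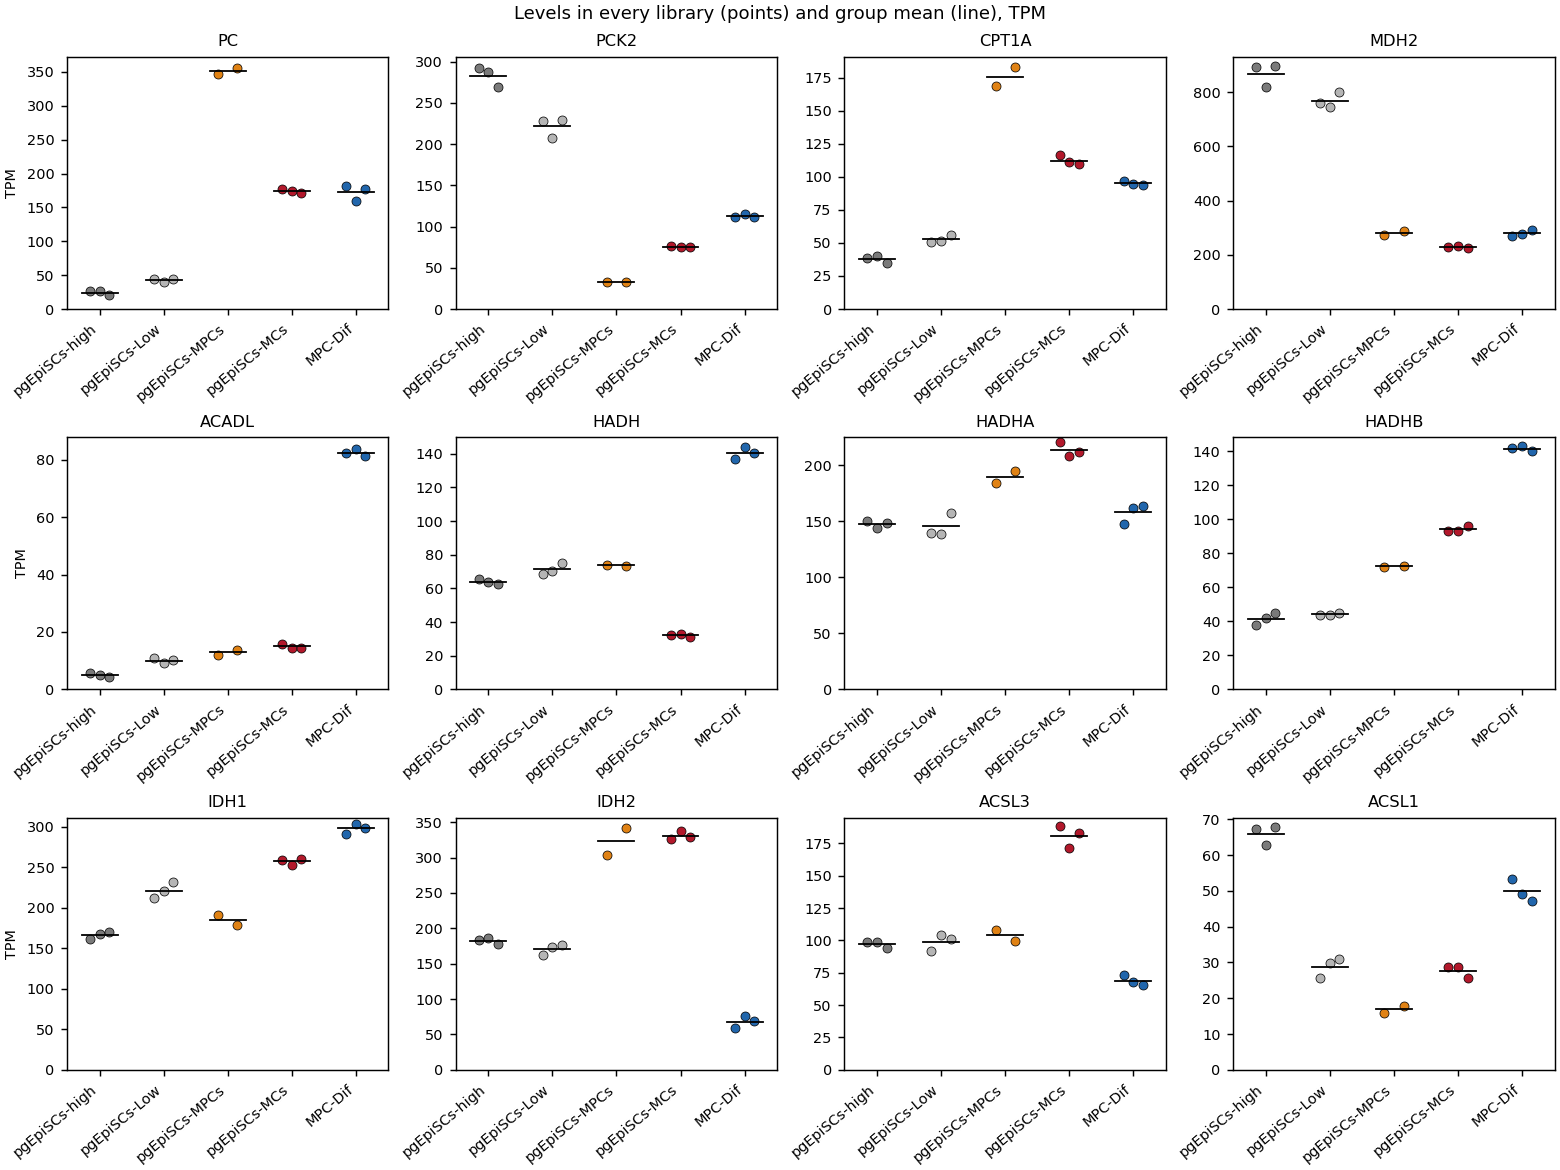
TPM (y axes) of 12 genes in every library (points) by group (x axes), with the group mean as a line. PC and CPT1A are highest in pgEpiSCs-MPCs, PCK2 and MDH2 in pgEpiSCs, ACADL, HADH and HADHB in MPC-Dif, and ACSL3 in pgEpiSCs-MCs.

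ATP citrate lyase (ACLY), which returns citrate carbon to cytosolic acetyl-CoA for lipid synthesis, was among the 4 most abundant of the genes in every group. It had 289 and 308 TPM in pgEpiSCs-MPCs, 358, 319.8 and 326 TPM in pgEpiSCs-MCs and 321, 299 and 291 TPM in MPC-Dif, against a range of 429.6 to 491 TPM (median 461) in pgEpiSCs. ACLY was lower in all 3 differentiated groups (-0.62, -0.46 and -0.59), and the difference of pgEpiSCs-MCs from MPC-Dif (0.14, adjusted p = 0.048) turned to -0.22 with median-of-ratios scaling and was lost when most single libraries were left out, with 0.09 without pgEpiSCs-MCs replicate 1. The aspartate aminotransferases of the malate-aspartate shuttle fell as well. GOT2, the mitochondrial form, had 198 and 219.8 TPM in pgEpiSCs-MPCs, 168, 161 and 169.6 TPM in pgEpiSCs-MCs and 135, 146 and 143 TPM in MPC-Dif, against a range of 334 to 395 TPM (median 372) in pgEpiSCs. GOT1, the cytosolic form, had 51.1 and 59.1 TPM in pgEpiSCs-MPCs, 66.2, 60.1 and 59.0 TPM in pgEpiSCs-MCs and 74.2, 87.7 and 79.8 TPM in MPC-Dif, against a range of 87.2 to 112 TPM (median 98.0) in pgEpiSCs. GOT2 fell most in MPC-Dif (log2 fold change -1.36, SE 0.046, adjusted p = 1.14e-12) and GOT1 in pgEpiSCs-MPCs (log2 fold change -0.82, SE 0.084, adjusted p = 8.53e-07). The GOT2 to GOT1 ratio was 2.70 ± 0.17 in pgEpiSCs-MCs and 1.76 ± 0.083 in MPC-Dif, against 3.75 ± 0.23 in pgEpiSCs.

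Glutamate dehydrogenase (GLUD1), which brings glutamate into the cycle as 2-oxoglutarate, had 101 and 98.1 TPM in pgEpiSCs-MPCs, 108, 103 and 105 TPM in pgEpiSCs-MCs and 117, 117 and 113 TPM in MPC-Dif, against a range of 116 to 229.7 TPM (median 174) in pgEpiSCs. Part of that range lies between the passages, since pgEpiSCs-high had 215, 222 and 229.7 TPM against 116, 127 and 132 TPM in pgEpiSCs-Low. The MPC-Dif libraries overlapped with pgEpiSCs-Low, and the fall in MPC-Dif (-0.52 against both passages) was not called against pgEpiSCs-Low alone. Malic enzymes turn malate into pyruvate. ME1, the cytosolic NADP-dependent form, had 16.4 and 14.5 TPM in pgEpiSCs-MPCs, 25.4, 24.8 and 27.2 TPM in pgEpiSCs-MCs and 41.7, 44.1 and 43.7 TPM in MPC-Dif, against a range of 16.4 to 26.2 TPM (median 21.1) in pgEpiSCs. ME2, a mitochondrial form, had 27.8 and 26.9 TPM in pgEpiSCs-MPCs, 16.8, 13.8 and 13.6 TPM in pgEpiSCs-MCs and 25.4, 25.0 and 25.8 TPM in MPC-Dif, against a range of 15.6 to 19.2 TPM (median 17.4) in pgEpiSCs. In MPC-Dif both rose (ME1 log2 fold change 0.99, SE 0.071, adjusted p = 6.94e-09, ME2 log2 fold change 0.54, SE 0.081, adjusted p = 2.14e-05). In pgEpiSCs-MPCs ME1 fell (-0.44) and ME2 rose (0.64, not called with quantile normalization). From day 8 to day 44 the order turned, with ME1 higher (log2 fold change 0.71, SE 0.091, adjusted p = 8.73e-06) and ME2 lower (log2 fold change -0.86, SE 0.1, adjusted p = 4.55e-06).

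The carnitine shuttle starts with carnitine palmitoyltransferase 1, the step of fatty acid oxidation that malonyl-CoA inhibits. CPT1A, the form known from liver and many other tissues, had 168 and 183 TPM in pgEpiSCs-MPCs, 116, 111 and 109.9 TPM in pgEpiSCs-MCs and 96.9, 94.3 and 93.9 TPM in MPC-Dif, against a range of 34.6 to 55.9 TPM (median 45.7) in pgEpiSCs. Both day 8 libraries were above all others (log2 fold change 1.95, SE 0.062, adjusted p = 3.22e-12 over pgEpiSCs), with 1.31 for pgEpiSCs-MCs and 1.07 for MPC-Dif over pgEpiSCs. CPT1B, the form known from muscle, had 28.6 and 27.9 TPM in pgEpiSCs-MPCs, 26.5, 27.0 and 28.2 TPM in pgEpiSCs-MCs and 15.7, 17.9 and 19.8 TPM in MPC-Dif, against a range of 17.0 to 20.9 TPM (median 19.3) in pgEpiSCs. It was higher in pgEpiSCs-MPCs (0.53) and pgEpiSCs-MCs (0.48), calls that quantile normalization did not give, and its change in MPC-Dif was -0.11 (adjusted p = 0.22). CPT1B was higher in pgEpiSCs-MCs than in MPC-Dif (log2 fold change 0.59, SE 0.093, adjusted p = 4.25e-05). CPT1A exceeded CPT1B in all 14 libraries, with a CPT1B to CPT1A ratio of 0.152 and 0.170 for pgEpiSCs-MPCs, 0.243 ± 0.014 for pgEpiSCs-MCs and 0.188 ± 0.025 for MPC-Dif, against 0.438 ± 0.086 for pgEpiSCs.

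SLC25A20, the carrier that exchanges acylcarnitine for carnitine across the inner membrane, had 147 and 142 TPM in pgEpiSCs-MPCs, 70.9, 71.3 and 67.8 TPM in pgEpiSCs-MCs and 72.8, 72.9 and 72.3 TPM in MPC-Dif, against a range of 129 to 160.2 TPM (median 142) in pgEpiSCs. It fell between day 8 and day 44 (log2 fold change -1.03, SE 0.068, adjusted p = 8.30e-09) and lay in a similar range in MPC-Dif (-0.97 over pgEpiSCs). CPT2, which reforms acyl-CoA in the matrix, stayed between 33.8 and 62.9 TPM in all libraries and was highest in MPC-Dif (log2 fold change 0.49, SE 0.072, adjusted p = 1.90e-05 over pgEpiSCs). Its change in pgEpiSCs-MCs (0.22) turned to -0.01 with median-of-ratios scaling, -0.04 with quantile normalization and -0.06 with the mitochondrial genes left out, and was not called without pgEpiSCs-MCs replicate 1 (0.19).

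The acyl-CoA dehydrogenases take the first step of each round of beta-oxidation and differ in the chain length they prefer. ACADL, the long-chain form, had 12.1 and 13.8 TPM in pgEpiSCs-MPCs, 16.0, 14.5 and 14.6 TPM in pgEpiSCs-MCs and 82.3, 83.8 and 81.4 TPM in MPC-Dif, against a range of 4.21 to 10.8 TPM (median 7.45) in pgEpiSCs. The 3 MPC-Dif libraries stood far above the rest (log2 fold change 3.37, SE 0.087, adjusted p = 6.08e-14 over pgEpiSCs), and pgEpiSCs-MCs were below them (log2 fold change -2.38, SE 0.1, adjusted p = 2.58e-11). The rises in pgEpiSCs-MPCs (0.79) and pgEpiSCs-MCs (0.99) over pgEpiSCs were smaller, also without overlap. ACADM, the medium-chain form and the most abundant, had 163 and 144 TPM in pgEpiSCs-MPCs, 143, 116 and 120.1 TPM in pgEpiSCs-MCs and 185, 200.1 and 187 TPM in MPC-Dif, against a range of 171 to 188 TPM (median 185) in pgEpiSCs. It was called lower in pgEpiSCs-MPCs and in pgEpiSCs-MCs (log2 fold change -0.53, SE 0.062, adjusted p = 2.07e-06 for pgEpiSCs-MCs). Its change in MPC-Dif was 0.07 (adjusted p = 0.34), which turned to -0.20 with the mitochondrial genes left out. ACADVL, the very-long-chain form, had 101 and 120.3 TPM in pgEpiSCs-MPCs, 109, 104 and 93.4 TPM in pgEpiSCs-MCs and 93.8, 85.6 and 96.8 TPM in MPC-Dif, against a range of 68.8 to 106 TPM (median 84.6) in pgEpiSCs, with overlap between each differentiated group and pgEpiSCs. Its calls in pgEpiSCs-MPCs (0.36) and pgEpiSCs-MCs (0.25) were lost with both scalings, against pgEpiSCs-Low alone and without pgEpiSCs-MPCs replicate 2 (0.23) or pgEpiSCs-MCs replicate 1 (0.20), and that in pgEpiSCs-MCs turned to -0.03 with the mitochondrial genes left out. ACADS, the short-chain form, had 50.9 and 54.6 TPM in pgEpiSCs-MPCs, 41.0, 37.4 and 39.4 TPM in pgEpiSCs-MCs and 42.2, 41.8 and 42.3 TPM in MPC-Dif, against a range of 44.9 to 49.4 TPM (median 47.5) in pgEpiSCs. It was lower in pgEpiSCs-MCs (-0.26), and its call in pgEpiSCs-MPCs (0.16) turned to -0.15 with median-of-ratios scaling and -0.16 with quantile normalization, and was not called without pgEpiSCs-MPCs replicate 2 (0.11). The ACADL to ACADM ratio was 0.119 ± 0.0065 in pgEpiSCs-MCs and 0.434 ± 0.014 in MPC-Dif, against 0.0417 ± 0.017 in pgEpiSCs.

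The electron transfer flavoprotein (ETF), made of the subunits ETFA and ETFB, takes the electrons from these dehydrogenases, and ETFDH hands them to ubiquinone. ETFA had 101 and 99.8 TPM in pgEpiSCs-MPCs, 50.4, 44.2 and 44.0 TPM in pgEpiSCs-MCs and 95.9, 105 and 103 TPM in MPC-Dif, against a range of 108 to 133 TPM (median 120.3) in pgEpiSCs. It was lower in pgEpiSCs-MCs than in every other group (log2 fold change -1.36, SE 0.067, adjusted p = 1.08e-10 over pgEpiSCs and -1.12 over MPC-Dif). ETFDH had 32.9 and 32.9 TPM in pgEpiSCs-MPCs, 33.9, 34.0 and 34.2 TPM in pgEpiSCs-MCs and 56.4, 53.6 and 59.4 TPM in MPC-Dif, against a range of 63.4 to 73.7 TPM (median 70.1) in pgEpiSCs, with its lowest values in both pgEpiSCs-derived groups (log2 fold change -1.06, SE 0.063, adjusted p = 2.50e-09 for pgEpiSCs-MPCs and -1.01 for pgEpiSCs-MCs). ETFB was listed at 0.454 to 2.42 TPM across the 14 libraries, far below its partner subunit. Whether its gene model or its counting is complete was not tested, so these values need not stand for its transcript level. It passed the test in none of the 6 comparisons (limma, adjusted p from 0.10 to 0.82, and 0 of the 6 at an unadjusted p under 0.05). In pgEpiSCs-MCs over pgEpiSCs (0.37) it was called without pgEpiSCs-high replicate 1 (0.45) or pgEpiSCs-MCs replicate 2 (0.57).

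The trifunctional protein carries out the last 3 steps for long chains, with HADHA as the alpha and HADHB as the beta subunit. HADHA had 184 and 194 TPM in pgEpiSCs-MPCs, 221, 208 and 212 TPM in pgEpiSCs-MCs and 148, 162 and 164 TPM in MPC-Dif, against a range of 139 to 157 TPM (median 146) in pgEpiSCs. HADHB had 71.9 and 72.7 TPM in pgEpiSCs-MPCs, 93.0, 93.3 and 95.9 TPM in pgEpiSCs-MCs and 142, 143 and 139.9 TPM in MPC-Dif, against a range of 37.7 to 45.2 TPM (median 43.9) in pgEpiSCs. HADHB was higher in each differentiated group, in the order pgEpiSCs-MPCs (0.74), pgEpiSCs-MCs (1.12) and MPC-Dif (log2 fold change 1.70, SE 0.05, adjusted p = 2.33e-13), with no overlap among these groups and pgEpiSCs. HADHA was higher in pgEpiSCs-MPCs (0.37, a call lost with median-of-ratios scaling) and in pgEpiSCs-MCs (log2 fold change 0.54, SE 0.05, adjusted p = 1.30e-07), while the change in MPC-Dif was 0.11 (adjusted p = 0.06), which turned to -0.16 with the mitochondrial genes left out. The HADHB to HADHA ratio was 0.374 and 0.390 for pgEpiSCs-MPCs, 0.441 ± 0.017 for pgEpiSCs-MCs and 0.900 ± 0.054 for MPC-Dif, against 0.294 ± 0.024 for pgEpiSCs. The ratio did not overlap between any of the differentiated groups and pgEpiSCs.

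HADHA (chromosome 3, 112753343 to 112797627, plus strand) and HADHB (chromosome 3, 112712894 to 112753121, minus strand) lie head to head in RefSeq's annotation of Sscrofa11.1. The 221 bases between their starts, chr3:112753122-112753342, are shown because both genes are annotated as starting at its ends. It is 62.9% G and C, holds 17 CG dinucleotides and none of the 3 motifs above, so no letters are in capitals. The strand is that of HADHA.
HADHB-HADHA gap: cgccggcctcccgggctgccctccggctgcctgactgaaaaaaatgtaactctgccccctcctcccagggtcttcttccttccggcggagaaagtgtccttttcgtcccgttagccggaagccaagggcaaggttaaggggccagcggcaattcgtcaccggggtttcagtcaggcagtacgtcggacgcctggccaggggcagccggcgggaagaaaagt

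HADH, the 3-hydroxyacyl-CoA dehydrogenase for medium and short chains, had 74.1 and 73.5 TPM in pgEpiSCs-MPCs, 32.5, 33.1 and 31.2 TPM in pgEpiSCs-MCs and 137, 144 and 140.2 TPM in MPC-Dif, against a range of 62.6 to 75.1 TPM (median 67.1) in pgEpiSCs. It was below all other groups in pgEpiSCs-MCs (log2 fold change -1.04, SE 0.044, adjusted p = 1.84e-11 over pgEpiSCs) and above them in MPC-Dif (log2 fold change 1.04, SE 0.044, adjusted p = 1.33e-11), a direct difference of -2.09 on the log2 scale for pgEpiSCs-MCs over MPC-Dif (adjusted p = 7.24e-14). In pgEpiSCs-MPCs its change of 0.13 (adjusted p = 0.04) turned to -0.18 with median-of-ratios scaling and -0.16 with quantile normalization, and was lost, at 0.11 to 0.13, without pgEpiSCs-Low replicate 1 or 2, pgEpiSCs-high replicate 2 or 3, or either pgEpiSCs-MPCs library. ECHS1, the short-chain enoyl-CoA hydratase, had 34.1 and 32.3 TPM in pgEpiSCs-MPCs, 58.2, 67.1 and 59.1 TPM in pgEpiSCs-MCs and 82.5, 90.0 and 89.0 TPM in MPC-Dif, against a range of 30.5 to 39.9 TPM (median 35.7) in pgEpiSCs. It was higher in pgEpiSCs-MCs (log2 fold change 0.77, SE 0.068, adjusted p = 9.19e-08) and more so in MPC-Dif (log2 fold change 1.27, SE 0.068, adjusted p = 2.45e-10). ACAA2, a mitochondrial thiolase, stayed between 20.1 and 31.5 TPM in all libraries and was called lower in pgEpiSCs-MCs (-0.38). In pgEpiSCs-MPCs it also lay below the pgEpiSCs libraries, at 22.1 and 22.2 TPM against 24.9 to 31.5 TPM.

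Long-chain acyl-CoA synthetases activate fatty acids and differ in where they sit in the cell. ACSL4, which prefers arachidonic acid, had 183 and 178 TPM in pgEpiSCs-MPCs, 129, 114 and 114 TPM in pgEpiSCs-MCs and 131, 110.2 and 102 TPM in MPC-Dif, against a range of 266 to 306 TPM (median 289.5) in pgEpiSCs. It was lower in all 3 groups (-0.67, -1.26 and -1.33). ACSL3, found at the endoplasmic reticulum and on lipid droplets, had 108 and 99.4 TPM in pgEpiSCs-MPCs, 189, 171 and 183 TPM in pgEpiSCs-MCs and 73.4, 67.8 and 65.5 TPM in MPC-Dif, against a range of 92.1 to 104 TPM (median 98.6) in pgEpiSCs. It was highest in pgEpiSCs-MCs (log2 fold change 0.88, SE 0.054, adjusted p = 1.42e-09 over pgEpiSCs) and lowest in MPC-Dif (log2 fold change -0.50, SE 0.054, adjusted p = 6.38e-07), and pgEpiSCs-MCs exceeded MPC-Dif by 1.38 on the log2 scale (adjusted p = 5.39e-11). The ACSL3 to ACSL4 ratio was 1.52 ± 0.070 in pgEpiSCs-MCs and 0.605 ± 0.040 in MPC-Dif, against 0.342 ± 0.013 in pgEpiSCs. ACSL1, known from heart, fat and muscle as the main form for oxidation, had 15.8 and 17.9 TPM in pgEpiSCs-MPCs, 28.7, 28.6 and 25.7 TPM in pgEpiSCs-MCs and 53.2, 49.0 and 47.2 TPM in MPC-Dif, against a range of 25.6 to 67.8 TPM (median 47.0) in pgEpiSCs, with the passages apart. It had 67.3, 62.9 and 67.8 TPM in pgEpiSCs-high against 25.6, 29.7 and 31.0 TPM in pgEpiSCs-Low. It fell in pgEpiSCs-MPCs (log2 fold change -1.32, SE 0.082, adjusted p = 4.12e-09) and was higher again in pgEpiSCs-MCs than in pgEpiSCs-MPCs (0.68), but pgEpiSCs-MCs did not pass the test against pgEpiSCs-Low alone.

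**Figure D4:**
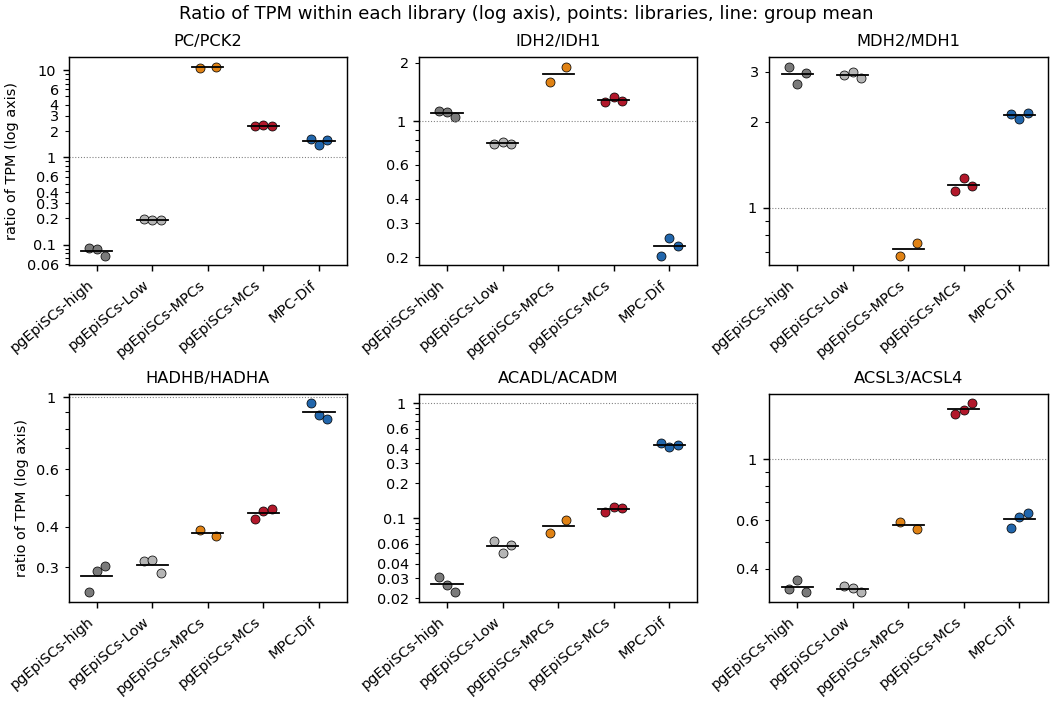
Ratio of the TPM of 2 genes within each library (y axes, log scale), by group (x axes), with points for libraries, a line for the group mean and a dotted line at 1. The PC to PCK2 ratio is 10.6 and 11.0 in pgEpiSCs-MPCs and 0.0747 to 0.197 in pgEpiSCs, and the HADHB to HADHA ratio is highest in MPC-Dif, at 0.900 ± 0.054.

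Between high and low passage, ACSL1 had the largest rise of the genes (log2 fold change 1.17, SE 0.082, adjusted p = 3.90e-07) and GLUD1 the next (log2 fold change 0.83, SE 0.052, adjusted p = 1.49e-07), both without overlap. PC had 26.8, 25.9 and 20.1 TPM in pgEpiSCs-high against 44.7, 39.7 and 44.0 TPM in pgEpiSCs-Low (log2 fold change -0.80, SE 0.09, adjusted p = 2.85e-05). PCK2 had 293, 287 and 269 TPM in pgEpiSCs-high against 228, 207 and 229.6 TPM in pgEpiSCs-Low (0.35, adjusted p = 2.27e-04). ACADL had 5.81, 4.86 and 4.21 TPM in pgEpiSCs-high against 10.8, 9.10 and 10.1 TPM in pgEpiSCs-Low (log2 fold change -0.89, SE 0.1, adjusted p = 2.90e-05). CPT1A had 38.5, 40.3 and 34.6 TPM in pgEpiSCs-high against 51.1, 51.2 and 55.9 TPM in pgEpiSCs-Low (-0.47). IDH1 had 162, 167 and 169.7 TPM in pgEpiSCs-high against 212, 220.1 and 232 TPM in pgEpiSCs-Low (-0.41). ACADL, CPT1A and IDH1 were thus lower at high passage. ACO1 rose by 0.46, ME1 by 0.43 and FH by 0.26 on the log2 scale. Of the 41 genes, 24 did not pass the test.

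Other genes of the same pathways were counted from 7 further lists, and values are given for the 4 called genes with the largest change in a comparison. The counts stand beside shares over all genes of 47.5% higher and 21.4% lower in pgEpiSCs-MPCs over pgEpiSCs, 50.8% and 30.9% in pgEpiSCs-MCs over pgEpiSCs, and 37.4% and 44.1% in MPC-Dif over pgEpiSCs. Of 12 further genes of the cycle and its shuttles, 2 were called higher and 6 lower in pgEpiSCs-MPCs over pgEpiSCs, 2 and 9 in pgEpiSCs-MCs, and 3 and 8 in MPC-Dif. SLC25A13, an aspartate-glutamate carrier, had 48.4 and 49.4 TPM in pgEpiSCs-MPCs, 14.2, 13.0 and 13.9 TPM in pgEpiSCs-MCs and 13.3, 13.6 and 13.6 TPM in MPC-Dif, against a range of 40.3 to 52.4 TPM (median 48.3) in pgEpiSCs, and fell between day 8 and day 44 (log2 fold change -1.76, SE 0.088, adjusted p = 4.33e-10). Of 8 anaplerosis genes, 3 were called higher and 5 lower in pgEpiSCs-MPCs, 2 and 5 in pgEpiSCs-MCs, and 2 and 4 in MPC-Dif. GLS2, a glutaminase, had 17.3 and 23.5 TPM in pgEpiSCs-MPCs, 3.63, 4.79 and 4.55 TPM in pgEpiSCs-MCs and 1.12, 1.20 and 1.07 TPM in MPC-Dif, against a range of 24.7 to 35.6 TPM (median 27.9) in pgEpiSCs. Its fall in MPC-Dif (log2 fold change -3.79, SE 0.1, adjusted p = 9.84e-14) left no overlap with pgEpiSCs. GPT, an alanine aminotransferase, had 14.1, 10.7 and 7.77 TPM in pgEpiSCs-high against 18.3, 15.7 and 14.6 TPM in pgEpiSCs-Low (log2 fold change -0.57, SE 0.17, adjusted p = 0.027), a call lost with quantile normalization and, at -0.36 to -0.58, without pgEpiSCs-high replicate 2 or 3 or pgEpiSCs-Low replicate 1 or 2.

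Of 6 peroxisomal genes, 4 were called higher and 1 lower in pgEpiSCs-MPCs over pgEpiSCs, 4 and 2 in pgEpiSCs-MCs, and 5 and 1 in MPC-Dif. CROT, which moves medium-chain acyl groups from peroxisomes to carnitine, had 39.1 and 37.4 TPM in pgEpiSCs-MPCs, 44.6, 41.3 and 42.6 TPM in pgEpiSCs-MCs and 42.5, 41.8 and 42.2 TPM in MPC-Dif, against a range of 7.22 to 9.15 TPM (median 7.60) in pgEpiSCs (log2 fold change 2.31, SE 0.062, adjusted p = 1.70e-13 for pgEpiSCs-MCs over pgEpiSCs). SCP2, a sterol carrier protein with a thiolase form, had 34.0 and 32.5 TPM in pgEpiSCs-MPCs, 53.1, 49.0 and 50.3 TPM in pgEpiSCs-MCs and 117, 121 and 124 TPM in MPC-Dif, against a range of 14.1 to 17.2 TPM (median 15.6) in pgEpiSCs (log2 fold change 2.89, SE 0.061, adjusted p = 6.44e-15 for MPC-Dif over pgEpiSCs). Of 6 auxiliary genes of beta-oxidation, 1 was called higher and 2 lower in pgEpiSCs-MPCs, 1 and 4 in pgEpiSCs-MCs, and 3 and 1 in MPC-Dif. DECR1, a dienoyl-CoA reductase for unsaturated fatty acids, had 30.2 and 28.8 TPM in pgEpiSCs-MPCs, 20.0, 20.4 and 22.3 TPM in pgEpiSCs-MCs and 69.0, 71.8 and 70.4 TPM in MPC-Dif, against a range of 9.28 to 17.1 TPM (median 12.6) in pgEpiSCs. It was lower in pgEpiSCs-high than in pgEpiSCs-Low (log2 fold change -0.65, SE 0.072, adjusted p = 2.71e-05). Of 3 ketone body genes, 2 were called higher and 0 lower in pgEpiSCs-MPCs, 1 and 2 in pgEpiSCs-MCs, and 2 and 0 in MPC-Dif. OXCT1, the enzyme that activates ketone bodies for oxidation, had 26.0 and 27.6 TPM in pgEpiSCs-MPCs, 8.90, 8.27 and 8.81 TPM in pgEpiSCs-MCs and 18.5, 19.7 and 18.7 TPM in MPC-Dif, against a range of 12.5 to 21.1 TPM (median 15.8) in pgEpiSCs (log2 fold change -1.52, SE 0.095, adjusted p = 4.34e-09 for pgEpiSCs-MCs over pgEpiSCs-MPCs).

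Of 7 genes of fatty acid uptake and activation, 2 were called higher and 2 lower in pgEpiSCs-MPCs over pgEpiSCs, 4 and 0 in pgEpiSCs-MCs over pgEpiSCs, and 4 and 3 in MPC-Dif over pgEpiSCs. In pgEpiSCs-MCs over MPC-Dif, where 50.0% of all genes were called higher and 29.1% lower, 3 were called higher and 4 lower. FABP5, a fatty acid binding protein, had 26.4 and 23.0 TPM in pgEpiSCs-MPCs, 243, 241 and 239 TPM in pgEpiSCs-MCs and 4.26, 3.51 and 3.71 TPM in MPC-Dif, against a range of 40.6 to 68.7 TPM (median 48.9) in pgEpiSCs. It was higher in pgEpiSCs-MCs than in MPC-Dif (log2 fold change 5.65, SE 0.086, adjusted p = 1.04e-15). ACSL5, another acyl-CoA synthetase, had 0.116 and 0.102 TPM in pgEpiSCs-MPCs, 0.645, 0.994 and 0.978 TPM in pgEpiSCs-MCs and 66.4, 63.2 and 65.7 TPM in MPC-Dif, against a range of 0 to 0.215 TPM (median 0.081) in pgEpiSCs, and stood apart in MPC-Dif (log2 fold change -5.15, SE 0.11, adjusted p = 1.93e-14 for pgEpiSCs-MCs over MPC-Dif). SLC27A1, a fatty acid transport protein, had 14.01 and 14.3 TPM in pgEpiSCs-MPCs, 36.4, 33.3 and 34.0 TPM in pgEpiSCs-MCs and 1.60, 2.21 and 2.52 TPM in MPC-Dif, against a range of 9.54 to 13.9 TPM (median 10.9) in pgEpiSCs (log2 fold change 3.53, SE 0.11, adjusted p = 9.89e-13 for pgEpiSCs-MCs over MPC-Dif). Of 11 regulators, 4 were called higher and 4 lower in pgEpiSCs-MPCs over pgEpiSCs, 6 and 5 in pgEpiSCs-MCs over pgEpiSCs, 3 and 6 in MPC-Dif over pgEpiSCs, and 5 and 4 in pgEpiSCs-MCs over MPC-Dif. ESRRB, an estrogen-related receptor known from pluripotent cells of the mouse, had 0.52 and 0.374 TPM in pgEpiSCs-MPCs, 1.10, 1.67 and 1.64 TPM in pgEpiSCs-MCs and 0.081, 0 and 0.073 TPM in MPC-Dif, against a range of 2.54 to 13.6 TPM (median 6.32) in pgEpiSCs, with 2.54, 3.44 and 3.69 TPM in pgEpiSCs-high and 8.95, 10.3 and 13.6 TPM in pgEpiSCs-Low. It was lower in pgEpiSCs-MPCs than in pgEpiSCs (log2 fold change -2.28, SE 0.16, adjusted p = 1.29e-08) and lower in pgEpiSCs-high than in pgEpiSCs-Low (log2 fold change -1.49, SE 0.16, adjusted p = 1.75e-05), without overlap in either. PDK4, a kinase that inhibits pyruvate dehydrogenase, had 39.7 and 34.9 TPM in pgEpiSCs-MPCs, 78.3, 81.4 and 82.9 TPM in pgEpiSCs-MCs and 0.64, 0.996 and 0.829 TPM in MPC-Dif, against a range of 1.16 to 2.46 TPM (median 1.54) in pgEpiSCs, without overlap between the muscle cells (log2 fold change 5.49, SE 0.13, adjusted p = 4.10e-14). PPARGC1A, a coactivator of mitochondrial biogenesis, had 2.50 and 2.15 TPM in pgEpiSCs-MPCs, 7.59, 6.75 and 7.37 TPM in pgEpiSCs-MCs and 0.033, 0.031 and 0.015 TPM in MPC-Dif, against a range of 0 to 0.25 TPM (median 0.119) in pgEpiSCs (log2 fold change 2.88, SE 0.1, adjusted p = 2.83e-12 for pgEpiSCs-MCs over pgEpiSCs).

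**Figure D5:**
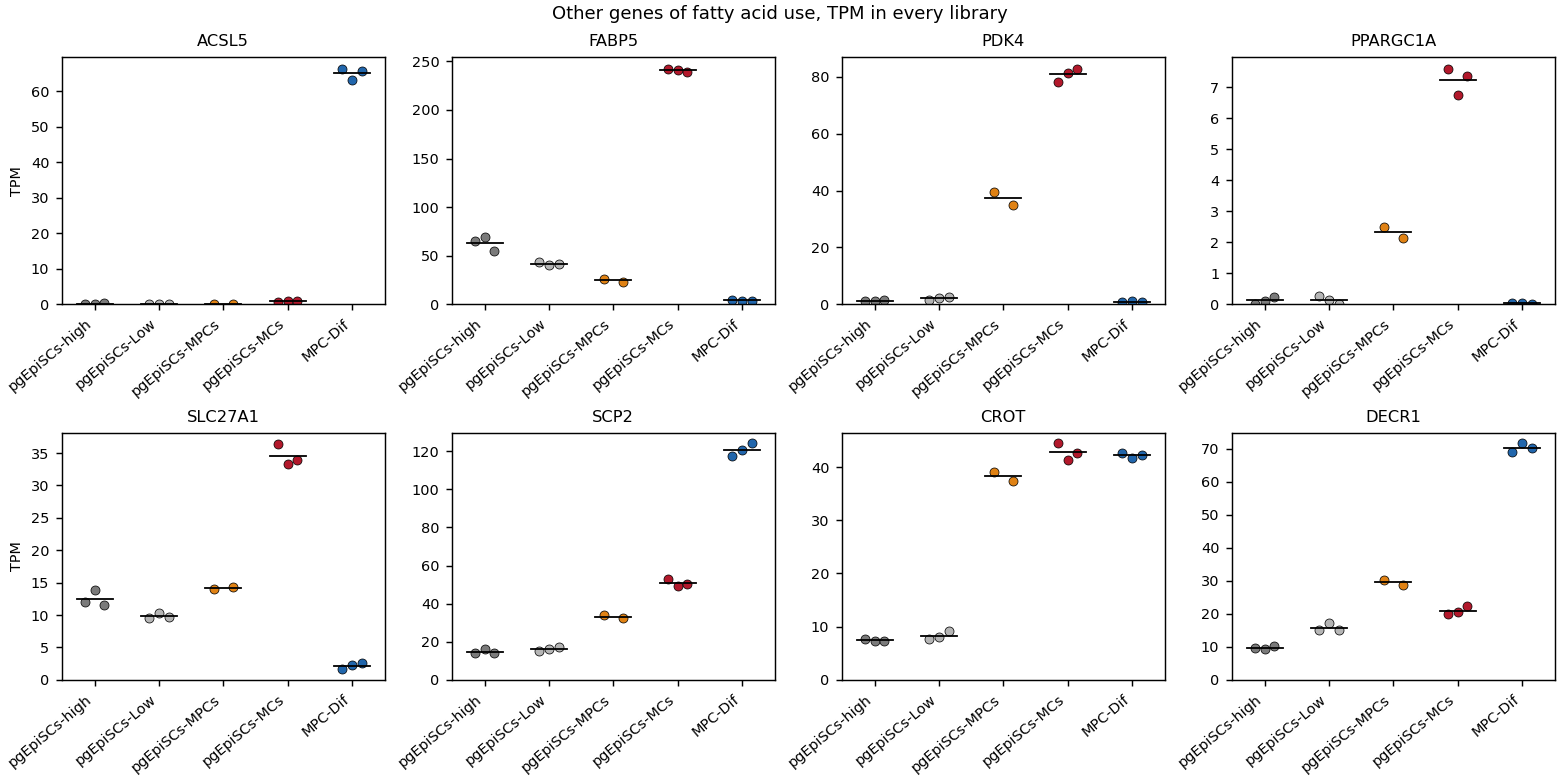
TPM (y axes) of 8 other genes of fatty acid use in every library (points) by group (x axes), with the group mean as a line. ACSL5 is at 63.2 to 66.4 TPM in MPC-Dif and below 1 TPM elsewhere, while FABP5 and PDK4 are highest in pgEpiSCs-MCs.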

How the data were processed

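Poly(A) RNA-seq was analysed in 14 libraries. The authors aligned reads to Sscrofa11.1 with HISAT2, counted them with featureCounts, and deposited TPM values for 15031 genes. The read depth cannot be read from TPM. All TPM columns were assigned to samples by name. log2(TPM + 1) was fitted with limma 3.58.1 in R 4.3.3, with 1 mean per group, an intensity trend and Benjamini-Hochberg adjustment over 14957 genes with more than 0.5 TPM in at least 50% of the libraries of a group. The fit was also run on simulated data with independent normal noise and changes planted in genes that were not low. That simulation held no shift in scaling between groups, so it cannot speak to the effect of scaling. Alternatives were pseudocounts of 0.1 and 0.5, no filter or a minimum of 2 TPM, other scalings, no trend, a replicate block, each library left out, the compared groups alone, and each passage alone as reference. Values per library were given for genes called without overlap, up to 6 in each direction by change, and for paralogs and partners. Of other pathway genes, up to 4 called genes per comparison were named. The genes, lists and this rule were chosen with earlier results of these data known, and the genes drawn in the plots, the TGATGNAA motif and some ratios after the values had been seen. Positions and sequences are from RefSeq.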

Additional observations from a re-analysis of the deposited data

Results flagged for a closer look

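In 6 of the 41 genes the changes over pgEpiSCs in pgEpiSCs-MCs and in MPC-Dif were both called, with opposite signs, and the direct difference, pgEpiSCs-MCs minus MPC-Dif, passed the test (limma, adjusted over all genes tested). Over all genes 16.0% met the same rule, so the count is near the background. By sign alone, with the change over pgEpiSCs called or not, 9 of the 41 did, beside 29.0% of all genes, the others being ACAA2, ACADM and CPT1B. Both changes use the same 6 pgEpiSCs libraries. IDH2 differed by 2.27 on the log2 scale (0.90 in pgEpiSCs-MCs and -1.37 in MPC-Dif over pgEpiSCs, adjusted p of the difference = 2.10e-12). ACSL3 differed by 1.38 (0.88 and -0.50, adjusted p = 5.39e-11). HADH differed by -2.09 (-1.04 and 1.04, adjusted p = 7.24e-14). ACSL1 differed by -0.83 (-0.64 and 0.19, adjusted p = 3.67e-07), ME2 by -0.76 (-0.22 and 0.54, adjusted p = 3.62e-06) and SUCLG2 by -0.43 (-0.24 and 0.19, adjusted p = 7.75e-05). In each of the 6, the 3 pgEpiSCs-MCs libraries lay on one side of the 3 MPC-Dif libraries. The rises of ACSL1 and SUCLG2 in MPC-Dif over pgEpiSCs turned to -0.08 each with the mitochondrial genes left out, and that of ACSL1 to -0.40 against pgEpiSCs-high alone. The fall of ACSL1 in pgEpiSCs-MCs was not called against pgEpiSCs-Low alone, with means of 27.7 TPM in pgEpiSCs-MCs and 28.8 TPM in pgEpiSCs-Low. Its opposite signs thus depend on averaging the passages. The fall of ME2 in pgEpiSCs-MCs over pgEpiSCs was not called without pgEpiSCs-MCs replicate 2 or 3 (-0.17 each).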

How the results depend on the processing

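The number of the 41 genes called higher in pgEpiSCs-MPCs over pgEpiSCs was 8 with median-of-ratios scaling and 7 with quantile normalization, and that in pgEpiSCs-MCs over MPC-Dif was 4 with median-of-ratios scaling. The number called lower in pgEpiSCs-high over pgEpiSCs-Low was 5 to 8 with 1 library left out, and 5 without pgEpiSCs-Low replicate 3. The number called higher there was 6 to 9 with 1 library left out. Over all genes, quantile normalization gave 5366 higher and 6797 lower in pgEpiSCs-MCs over pgEpiSCs and 4598 and 5314 in pgEpiSCs-MPCs over pgEpiSCs. In pgEpiSCs-MCs over MPC-Dif it gave 5344 and 6316, and median-of-ratios scaling 6055 and 5936. In pgEpiSCs-high over pgEpiSCs-Low they gave 1773 and 1649, and 1931 and 1653. The all-gene median of 0.27 in pgEpiSCs-MCs over pgEpiSCs was 0.10 with median-of-ratios scaling, -0.13 with quantile normalization and 0.07 with the mitochondrial genes left out. That of -0.10 in MPC-Dif over pgEpiSCs was -0.29 with the mitochondrial genes left out.

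Of 6894 values of 276 gene results under these alternatives, 6634 kept a call and its direction or were called in neither fit. Changes of sign without a call in either fit are among these 6634 and are not listed. With the sign kept, 170 lost and 57 gained a call. The other 33 changed sign with a call in the main fit, the alternative or both. With median-of-ratios scaling these were, in pgEpiSCs-MPCs over pgEpiSCs, SLC25A20 (-0.30), ACADS (-0.15), HADH (-0.18) and ACSL3 (-0.23), in pgEpiSCs-MCs over pgEpiSCs CPT2 (-0.0116), and in pgEpiSCs-MCs over MPC-Dif CS (-0.23), IDH3B (-0.27), FH (-0.21), PC (-0.34), ACLY (-0.22), GOT2 (-0.12), CPT1A (-0.11), ACADVL (-0.21) and ACSL4 (-0.29). With quantile normalization they were SLC25A20 (-0.21), ACADS (-0.16), HADH (-0.16) and ACSL3 (-0.18) in pgEpiSCs-MPCs over pgEpiSCs, ME1 (-0.11) and CPT2 (-0.0436) in pgEpiSCs-MCs over pgEpiSCs, and ETFB (-0.76) in pgEpiSCs-MCs over MPC-Dif. With the mitochondrial genes left out they were ME1 (-0.00538), CPT2 (-0.0573) and ACADVL (-0.0302) in pgEpiSCs-MCs over pgEpiSCs, CS (-0.12) and ACLY (-0.00132) in pgEpiSCs-MCs over pgEpiSCs-MPCs, and SUCLG2 (-0.0790), ACADM (-0.20), HADHA (-0.16), ACAA2 (-0.25) and ACSL1 (-0.0785) in MPC-Dif over pgEpiSCs. With pgEpiSCs-high alone as the reference, IDH1 was at 0.15 in pgEpiSCs-MPCs and ACSL1 at -0.40 in MPC-Dif. The cause was not tested.

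Samples with the same replicate number did not deviate together (correlations of -0.151 to 0.126 over 26 pairs), so the numbers were not taken as pairs. With the replicate number as a block, the calls higher and lower were 12 and 22 in pgEpiSCs-MPCs over pgEpiSCs, 14 and 26 in pgEpiSCs-MCs over pgEpiSCs, 9 and 18 in pgEpiSCs-MCs over pgEpiSCs-MPCs, 13 and 21 in MPC-Dif over pgEpiSCs, 7 and 23 in pgEpiSCs-MCs over MPC-Dif, and 7 and 7 in pgEpiSCs-high over pgEpiSCs-Low. TPM hold no read depth, so no counting interval can be given, and pgEpiSCs-MPCs rest on 2 libraries.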
